A study of Homo sapiens with 14 samples.

Results

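The histone genes of the HIST clusters were the 48 of the 19410 genes in the RNA-Seq table whose name began with HIST1H, HIST2H, HIST3H or HIST4H. They comprised 4 H1, 13 H2A, 15 H2B, 7 H3 and 9 H4 genes, of which 39 lay in the large HIST1H cluster on chromosome 6, 7 in the HIST2H cluster on chromosome 1, and 1 each at HIST3H on chromosome 1 and HIST4H on chromosome 12. The cells were MDA-MB-231, a human triple-negative breast cancer line, as the unedited parental culture and as 6 CRISPR-edited lines: SAP30-KO1 and SAP30-KO2 lacking SAP30, SIN3A+SIN3B-DKO1 and SIN3A+SIN3B-DKO2 lacking both SIN3A and SIN3B, and MLL1-KO1 and MLL1-KO2 lacking MLL1. SAP30, SIN3A and SIN3B are subunits of the SIN3 histone deacetylase complex, and MLL1 (KMT2A, listed as MLL) is a histone H3 lysine 4 methyltransferase. No culture received a treatment. Per the study's methods, a knockout line was a mixture of several edited clones made with lentiCRISPRv2 guides and puromycin. Each of the 7 groups had 2 libraries, 14 in all, and nothing in the labels says that the 2 came from separate cultures, so each p-value measures the spread between libraries, which may be technical.

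Replication-dependent histone genes supply the core histones H2A, H2B, H3 and H4 and the linker histone H1 that package newly copied DNA, and their transcription peaks in S phase. Their mRNAs are unusual in that most end in a conserved stem-loop, bound by the protein SLBP, in place of a poly(A) tail. Some members can also be transcribed past the stem-loop and polyadenylated, a form known from differentiated and nondividing cells. The libraries here were made with an mRNA kit that captures poly(A) tails, so the values describe the histone transcripts that passed this capture and not the whole histone mRNA pool.

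The stem-loop was read from the genome (GRCh37, the sequence of hg19) because it decides how such an RNA ends. A 6-base stem starting with GG, perfectly paired and closed over a 4-base loop that starts with TT, lay within 150 bases after the stop codon in 43 of the 46 members that have an annotated stop codon, 23 to 63 bases after it. The same search found it in 2 of 19893 other protein-coding genes. The 34 matched H1, H2A, H2B and H3 members had GGCTCT and AGAGCC as stem arms, and the 9 H4 members had GGCCCT and AGGGCC. The letters searched for were not in this window of HIST1H3E, HIST1H2AG and HIST1H2AK, and HIST2H2BA and HIST2H2BC, annotated as pseudogenes, have no stop codon. The 4 lines that follow give the forms, with the stem arms in capitals and the loop in lower case; HIST1H2BK and HIST1H1C are shown because they carried the largest values, and HIST1H4C and HIST2H2AC for the H4 stem and the rarest loop.
HIST1H2BK, chr6:27114145-27114160, minus strand: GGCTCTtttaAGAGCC
HIST1H1C, chr6:26055972-26055987, minus strand: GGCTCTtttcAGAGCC
HIST1H4C, chr6:26104545-26104560, plus strand: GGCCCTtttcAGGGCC
HIST2H2AC, chr1:149858941-149858956, plus strand: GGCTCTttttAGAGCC

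Promoters of the 4 genes that carried most of the signal are printed from RefSeq (GRCh38.p14), each as the 250 bases before the annotated start, with capitals for 3 motifs searched on both strands: the octamer ATTTGCAT, the CCAAT box CCAAT and the TATA box TATAAA, which can overlap its own reverse complement. The octamer was in 20 of the 45 member promoters in the table (44.4%) against 1.63% of all 35116 promoters of the same length. All of the member promoters with it belonged to H2A or H2B genes, and none to H1, H3 or H4 genes. The CCAAT box was in 39 (86.7%) against 32.01%, and the TATA box in 34 (75.6%) against 10.72%. Among the 4 genes, HIST1H2BK and HIST1H2AC held all 3 motifs, HIST1H2BD held the CCAAT and TATA boxes, and HIST1H1C held the CCAAT box.
HIST1H2BK, chr6:27146859-27147108, minus strand: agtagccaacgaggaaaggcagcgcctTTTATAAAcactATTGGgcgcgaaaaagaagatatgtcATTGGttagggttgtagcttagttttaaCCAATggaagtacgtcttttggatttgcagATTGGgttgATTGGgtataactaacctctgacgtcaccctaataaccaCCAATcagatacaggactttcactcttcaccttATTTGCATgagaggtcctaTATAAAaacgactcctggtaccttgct
HIST1H2BD, chr6:26157871-26158120, plus strand: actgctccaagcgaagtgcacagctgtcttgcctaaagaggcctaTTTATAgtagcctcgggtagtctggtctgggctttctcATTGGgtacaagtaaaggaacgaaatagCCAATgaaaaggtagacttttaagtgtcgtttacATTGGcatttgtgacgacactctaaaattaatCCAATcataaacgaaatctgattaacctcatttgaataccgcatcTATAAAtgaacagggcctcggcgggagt
HIST1H1C, chr6:26056471-26056720, minus strand: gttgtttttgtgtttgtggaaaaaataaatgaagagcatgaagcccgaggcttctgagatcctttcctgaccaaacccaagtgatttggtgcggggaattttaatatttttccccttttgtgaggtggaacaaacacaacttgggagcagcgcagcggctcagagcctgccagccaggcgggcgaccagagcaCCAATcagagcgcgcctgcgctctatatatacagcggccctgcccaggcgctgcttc
HIST1H2AC, chr6:26123922-26124171, plus strand: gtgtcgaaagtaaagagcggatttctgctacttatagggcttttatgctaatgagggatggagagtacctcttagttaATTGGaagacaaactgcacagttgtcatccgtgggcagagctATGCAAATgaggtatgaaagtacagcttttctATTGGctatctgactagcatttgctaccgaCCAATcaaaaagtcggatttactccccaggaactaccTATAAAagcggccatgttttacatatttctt

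Levels were deposited per length and library and are given as TPM, transcripts per 1000000 transcripts, since each library summed to 1000000. Whole reads could be recovered for all 18519 genes above 0, and the libraries held 18415036 to 23162682 reads. VIM (5741 to 8805 TPM), MSN, CD44, CAV1 and KRT18, expected in MDA-MB-231, were high in every library, while ESR1, PGR, CD3E, CDH5, DCN and COL1A2 stayed below 0.4 TPM. CDH1 reached 1.25 TPM, PTPRC 0.603, PECAM1 3.97, EPCAM 19.2 and ERBB2 42.8. SAP30 was at 2.75 to 4.96 TPM in the SAP30-KO lines against 78.9 to 82.8 in parental. MLL was at 15.8 to 17.4 in MLL1-KO1 and 25.7 to 27.7 in MLL1-KO2 against 49.0 to 56.7, and at 23.01 to 35.4 in the SAP30-KO lines. In the SIN3A+SIN3B-DKO lines SIN3B was at 43.5 to 50.2 against 75.1 to 77.4, whereas SIN3A was at 55.1 to 62.5 against 43.1 to 45.4, so for SIN3A the RNA level did not mark the edit. The 2 libraries of SIN3A+SIN3B-DKO2 differed most over all genes (chi-square per degree of freedom 8.08, against 1.48 to 3.8 in the other groups).

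Most members were near the limit of detection. A member was tested when it reached 1 TPM in at least 2 libraries, which 34 of the 48 did: 2 of 4 H1, 9 of 13 H2A, 13 of 15 H2B, 5 of 7 H3 and 5 of 9 H4 genes. HIST1H1A, HIST1H1T and HIST1H3E had 0 reads in all 14 libraries, which allows up to 3 reads in each. The other 11 untested members, HIST3H2A with 1 read in 1 library among them, never had more than 4 reads in a library. Only HIST1H2BK, HIST1H1C, HIST1H2BD and HIST1H2AC averaged 10 TPM or more over the 14 libraries, at 114, 51.1, 23.8 and 15.9 TPM, and these 4 carried 79.1% and 78.5% of the summed TPM of all 48 members in the parental libraries. The other 30 tested members had a median of 9 reads in a library and at most 84, so their values carry large counting error. Per length, the clustered genes were a small part of the histone transcripts captured: they summed to 499.8 and 525 TPM in parental, against 3047 and 2984 TPM for the replication-independent histone genes outside the clusters.

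The length over which a gene's reads had been counted, which the TPM steps give, varied among the 4 abundant members. Taken from the authors' values, that length is 839 bases for HIST1H2BK and 861 for HIST1H2BD, against 378 coding bases each, so 461 and 483 bases lie outside the coding sequence. It is 546 bases for HIST1H2AC, 156 beyond the coding sequence, and 732 for HIST1H1C, 93 beyond it. Among 43 members with both lengths, the longest excess was in HIST2H2BE (1845 bases) and HIST2H2BF (689 bases), which averaged 2.78 and 1.90 TPM. An AATAAA hexamer, the usual polyadenylation signal, first appeared 56 bases after the stop codon in HIST1H1C, 65 in HIST1H2BD and 805 in HIST1H2AC, and was not found in the 1500 bases after that of HIST1H2BK. The search followed the genome without splicing. The 839 bases counted for HIST1H2BK exceed its annotated span of 495 bases, so part of what was counted may lie outside the stretch searched. Of the 50-base stretches in the shortest annotated transcript of HIST1H2BK, 57.2% occur in transcripts of other genes as well. Reads of those stretches could have been split or shared. Copies elsewhere and genes overlapping the same site were not separated, and this transcript is shorter than the 839 bases counted. The share in the shortest transcript was 10.1% for HIST1H2BD, 1.5% for HIST1H2AC and 0.0% for HIST1H1C.

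**Figure D1:**
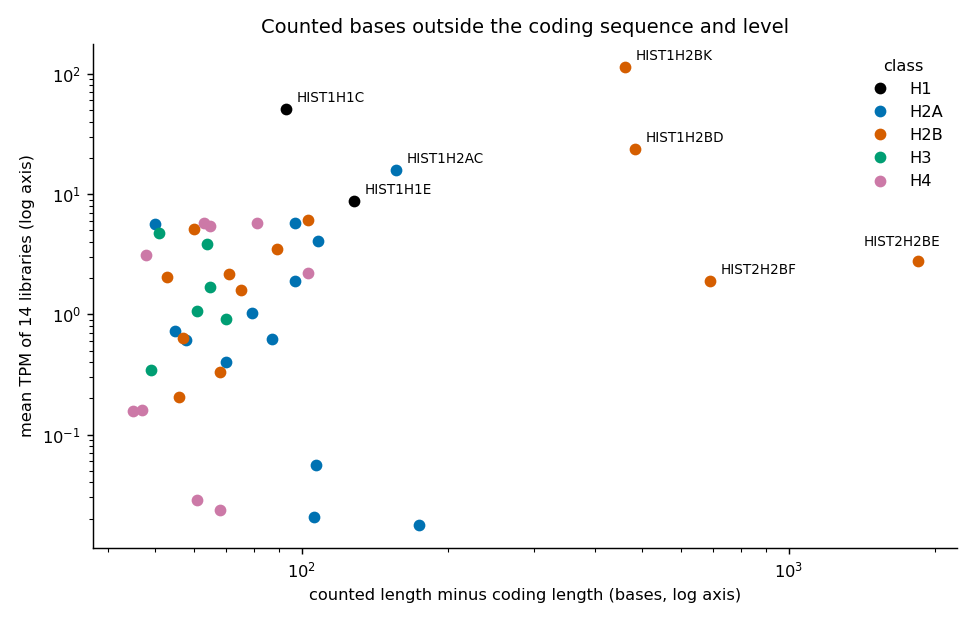
Mean TPM of 14 libraries (vertical, log axis) against the counted length minus the coding length in bases (horizontal, log axis) for 43 histone genes, 1 point a gene and colored by class. HIST1H2BK (461 bases, 114 TPM) and HIST1H2BD (483 bases, 23.8 TPM) combine a long counted region with a high level, whereas HIST2H2BE (1845 bases) averaged 2.78 TPM.

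To learn which histone genes changed in each line, each was compared with parental in a limma fit of log2(TPM + 0.5) over all 13540 tested genes, with Benjamini-Hochberg adjustment. A gene was called at an adjusted p under 0.05 and at least 1.5-fold. The 6 comparisons share the same 2 parental libraries and are given side by side. No line with a control guide was among the libraries. A change common to all 6 lines therefore cannot be told apart from an effect of editing and selection, or from a trait of the parental libraries. In bulk RNA, fewer cells expressing a gene, such as fewer cells in S phase, and less RNA per cell cannot be told apart. HIST1H2BK and HIST1H2BD were lower in all 6 lines, HIST1H1C in 5 and HIST1H2AC in 3, and only 1 member, HIST1H4B in MLL1-KO2, was called higher in any line. Of the 34 tested members, 4 were called lower in SAP30-KO1 (background over all tested genes, 7.86% called lower), 3 in SAP30-KO2 (8.12%), 8 in SIN3A+SIN3B-DKO1 (8.66%), 5 in SIN3A+SIN3B-DKO2 (7.56%), 12 in MLL1-KO1 (16.3%) and 4 in MLL1-KO2 (14.9%). The backgrounds for higher calls were 7.8%, 7.44%, 7.76%, 6%, 6.89% and 10.2% in the same order, and MLL1-KO2 had 1 member called higher. The lower calls were 11.8%, 8.82%, 23.5%, 14.7%, 35.3% and 11.8% of the 34 members, so the share was near the background in SAP30-KO2, below it in MLL1-KO2 and more above it in SIN3A+SIN3B-DKO1 and MLL1-KO1 than in the rest. Quantile normalization gave 8 lower calls in MLL1-KO1, and 3 higher beside 4 lower in MLL1-KO2, and it moved the median log2 fold change of all genes in MLL1-KO1 from -0.09 to 0.04. The median log2 fold change of the 34 members was -0.12 in SAP30-KO1, -0.11 in SAP30-KO2, -0.55 in SIN3A+SIN3B-DKO1, -0.29 in SIN3A+SIN3B-DKO2, -0.45 in MLL1-KO1 and -0.04 in MLL1-KO2. For all tested genes it was 0.03, 0.01, 0.00, 0.01, -0.09 and -0.04.

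**Figure D2:**
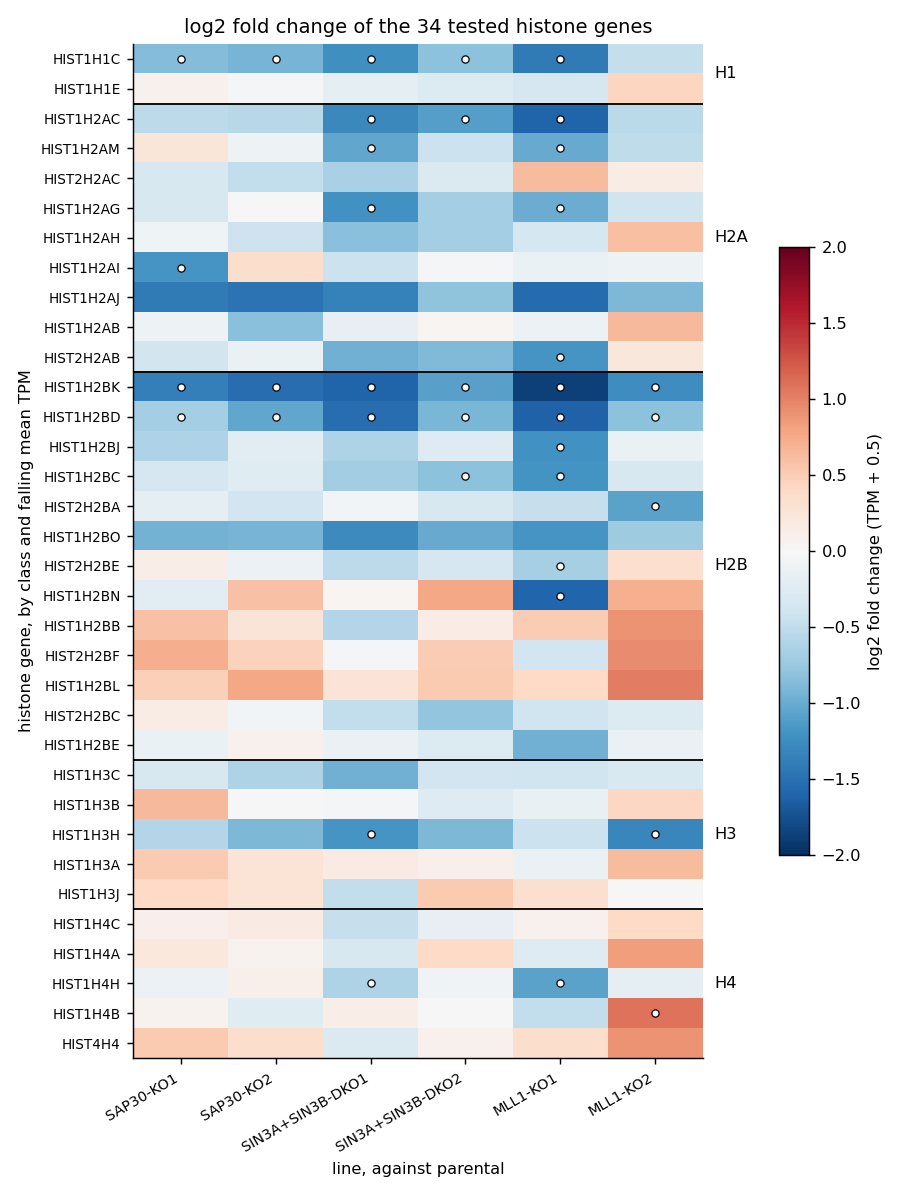
Log2 fold change against parental of the 34 tested histone genes (rows, by class and falling mean TPM) in the 6 lines (columns), on a color scale from -2 to 2; white circles mark called genes. HIST1H2BK and HIST1H2BD carry a circle in all 6 columns, and the row of HIST1H2BK runs from -1.08 to -1.87.

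HIST1H2BK (H2BC12, chr6:27114140-27114634, minus strand) encodes an H2B protein that pairs with H2A in the nucleosome. Its level was 244 and 251 TPM in parental. The SAP30-KO1 libraries were at 93.4 and 98.4, those of SAP30-KO2 at 82.9 and 88.2, SIN3A+SIN3B-DKO1 at 82.6 and 79.8, SIN3A+SIN3B-DKO2 at 107 and 126, MLL1-KO1 at 62.9 and 71.98, and MLL1-KO2 at 111 and 98.1. Every line library lay below both parental libraries, with the lowest in MLL1-KO1. The log2 fold changes were -1.36 in SAP30-KO1, -1.53 in SAP30-KO2, -1.60 in SIN3A+SIN3B-DKO1, -1.08 in SIN3A+SIN3B-DKO2, -1.87 in MLL1-KO1 and -1.24 in MLL1-KO2 (SE 0.09 each; largest limma adjusted p of the 6, 2.5e-06). These values rest on 430 to 1476 reads a library.

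HIST1H2BD (H2BC5, chr6:26158350-26171577, plus strand) encodes another H2B protein. Parental libraries held 42.5 and 43.9 TPM, SAP30-KO1 27.1 and 26.7, SAP30-KO2 20.4 and 21.0, SIN3A+SIN3B-DKO1 13.8 and 15.5, SIN3A+SIN3B-DKO2 24.3 and 21.4, MLL1-KO1 12.8 and 14.9, and MLL1-KO2 26.6 and 22.2. Again no line library reached the lower parental one, and SIN3A+SIN3B-DKO1 and MLL1-KO1 were lowest. The log2 fold changes were -0.67, -1.04, -1.53, -0.91, -1.61 and -0.82 in the same order of lines (SE 0.10; largest limma adjusted p, 0.0002).

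HIST1H1C (H1-2, chr6:26055968-26056698, minus strand) encodes the linker histone H1.2, which binds DNA where it enters and leaves the nucleosome. Parental libraries were at 84.4 and 88.2 TPM, SAP30-KO1 at 49.7 and 44.2, SAP30-KO2 at 47.7 and 42.5, SIN3A+SIN3B-DKO1 at 35.2 and 37.9, SIN3A+SIN3B-DKO2 at 50.3 and 47.2, MLL1-KO1 at 30.5 and 33.7, and MLL1-KO2 at 60.5 and 63.1. MLL1-KO2 was the line nearest to parental, without overlapping it. The log2 fold change was -0.87 in SAP30-KO1, -0.93 in SAP30-KO2, -1.23 in SIN3A+SIN3B-DKO1, -0.82 in SIN3A+SIN3B-DKO2 and -1.41 in MLL1-KO1 (SE 0.08; largest limma adjusted p, 8.3e-06). In MLL1-KO2 it was -0.48 (limma adjusted p = 0.00024), short of 1.5-fold and so not called.

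HIST1H2AC (H2AC6, chr6:26124373-26139344, plus strand) encodes an H2A protein. Its parental libraries were at 24.5 and 28.5 TPM. It was called lower in SIN3A+SIN3B-DKO1 (12.3 and 9.04 TPM, log2 fold change -1.28), SIN3A+SIN3B-DKO2 (12.0 and 12.0 TPM, -1.11) and MLL1-KO1 (8.31 and 8.44 TPM, -1.60), with an SE of 0.12 and a largest limma adjusted p of 2.3e-05. SAP30-KO1 (18.6 and 17.7 TPM), SAP30-KO2 (17.8 and 17.9) and MLL1-KO2 (17.0 and 18.9) had log2 fold changes of -0.53, -0.55 and -0.55, past the p threshold and short of 1.5-fold. All 12 line libraries lay below both parental ones.

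**Figure D3:**
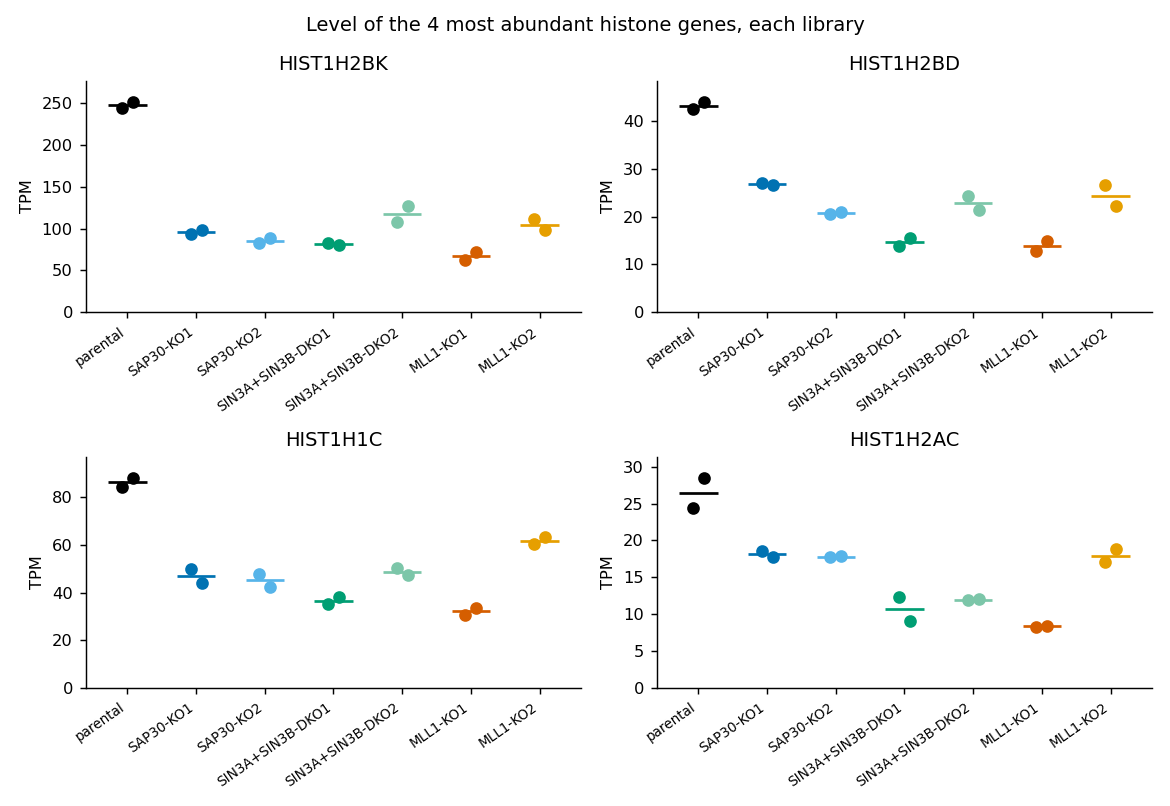
TPM of HIST1H2BK, HIST1H2BD, HIST1H1C and HIST1H2AC in each library (points) with the mean of the 2 libraries of each group (horizontal lines), each axis starting at 0. In all 4 panels the parental points (for HIST1H2BK 244 and 251 TPM) stand above every line, and MLL1-KO1 holds the lowest single library.

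Among the other 30 tested members, calls in the SAP30-KO and SIN3A+SIN3B-DKO lines were few and rested on few reads. SAP30-KO1 had 1, HIST1H2AI, an H2A gene with 3 and 5 reads in parental and 2 and 0 in SAP30-KO1 (log2 fold change -1.18, limma adjusted p = 0.023). The ratio of its reads was 0.240, with an exact 95% interval for counting error of 0.0249 to 1.21, and it was no longer called without parental replicate 2 or without SAP30-KO1 replicate 2. SAP30-KO2 had none, by limma on TPM, with 2 at an unadjusted p under 0.05 and 1 called by voom, limma's weighting for read counts, on the recovered reads (HIST1H2AJ). SIN3A+SIN3B-DKO2 had 1, HIST1H2BC (7.30 and 7.17 TPM in parental, 5.97 and 2.49 in the line; -0.81, adjusted p = 0.039), which was called under 7 of 15 alternatives and lost, among others, by voom and without either parental library or SIN3A+SIN3B-DKO2 replicate 2. SIN3A+SIN3B-DKO1 had 4, of which the H2A genes HIST1H2AG and HIST1H2AM were named after their values were seen. HIST1H2AG went from 5.03 and 6.31 TPM to 1.65 and 2.73 (-1.22, adjusted p = 0.0029) and was called under all 15 alternatives that gave it a value. The alternatives counted include the same fit with no fold minimum, which cannot lose a call. HIST1H3H, an H3 gene, went from 3.23 and 2.72 TPM to 0.498 and 1.83 (-1.19), HIST1H2AM from 5.997 and 8.80 to 2.66 and 4.06 (-1.03), and HIST1H4H from 8.92 and 4.58 to 3.78 and 4.29 (-0.61, called under 5 of 15 alternatives). Leaving out SIN3A+SIN3B-DKO1 replicate 1 ended the calls of HIST1H3H, HIST1H2AM and HIST1H4H, and so did leaving out parental replicate 1 for HIST1H3H and HIST1H4H, parental replicate 2 for HIST1H2AM and SIN3A+SIN3B-DKO1 replicate 2 for HIST1H4H.

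Replicate libraries of 2 lines differed in the low members. Summed over the 44 members other than the 4 abundant ones, SAP30-KO2 held 135 TPM in replicate 1 and 69.1 in replicate 2, a ratio of 1.96, and SIN3A+SIN3B-DKO2 held 108 and 72.6, a ratio of 1.49. In the other 5 groups the ratio of replicate 1 to replicate 2 was 0.760 to 1.06. The sum of the 4 abundant members had ratios of 0.888 to 1.06 in all 7 groups. The sum of RNAs of other families that lack a poly(A) tail rested on 51 to 130 reads a library. It differed between replicates of SIN3A+SIN3B-DKO2 (29.8 and 20.8 TPM) and SIN3A+SIN3B-DKO1 (25.6 and 46.5) and was alike in SAP30-KO2 (32.4 and 32.3). Its part in the result was not tested. Without SAP30-KO2 replicate 1 there were 6 lower and 0 higher calls in that line, and without replicate 2 there were 3 lower and 3 higher, the latter being HIST1H4A, HIST1H2BB and HIST1H2BL (named after their values were seen). Without SIN3A+SIN3B-DKO2 replicate 1 that line had 7 lower calls, and without replicate 2 it had 4.

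**Figure D4:**
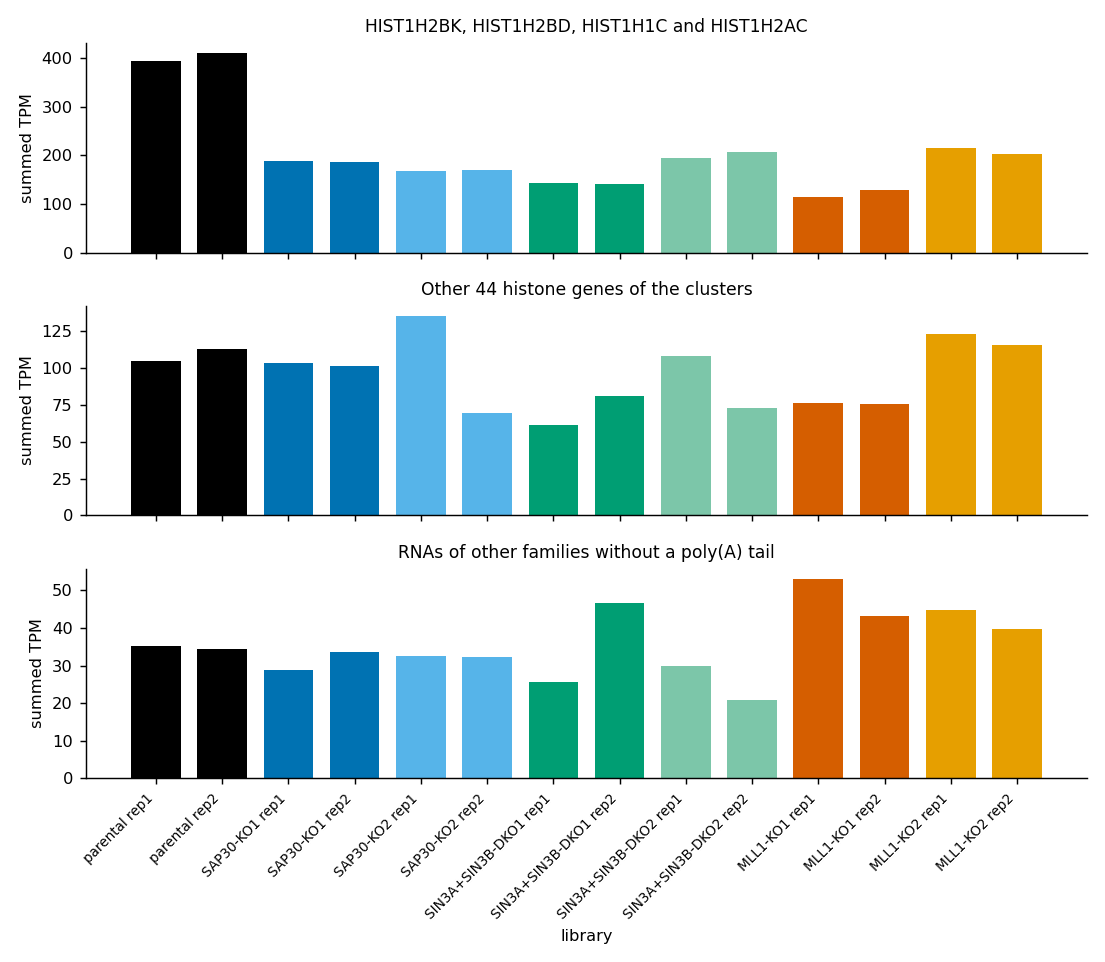
Summed TPM per library (bars from 0, colored by group) of the 4 abundant histone genes (top), the other 44 members (middle) and RNAs of other families without a poly(A) tail (bottom). The top bars fall from 395 and 412 TPM in parental to 114 to 215 in the lines, while the middle bars of SAP30-KO2 stand at 135 and 69.1.

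MLL1-KO1 had the most calls, 8 of them among the low members. The 4 H2B genes were HIST1H2BJ (8.10 and 8.01 TPM in parental, 4.34 and 2.33 in the line; log2 fold change -1.21), HIST1H2BC (3.64 and 2.27 in the line; -1.19), HIST2H2BE (3.13 and 3.02, then 1.71 and 1.79; -0.67) and HIST1H2BN (7 and 4 reads, then 2 and 0; -1.59). The H2A genes HIST1H2AG, HIST1H2AM and HIST2H2AB were at -0.99, -1.004 and -1.18, the last with 2 and 4 reads in parental and 1 and 0 in MLL1-KO1, and the H4 gene HIST1H4H was at -1.07. The ratio of reads was 0.166 for HIST1H2BN (exact 95% interval 0.0179 to 0.762) and 0.152 for HIST2H2AB (0.00331 to 1.26). Limma adjusted p-values of these 8 ran from 0.0017 to 0.041. Leaving out MLL1-KO1 replicate 2 ended the calls of HIST1H2BJ, HIST2H2BE, HIST1H2BN, HIST1H2AG and HIST2H2AB, and leaving out parental replicate 2 ended those of HIST2H2BE, HIST1H2BN, HIST1H2AG, HIST1H2AM and HIST2H2AB, and the count of called members was 8 and 7 in place of 12. HIST2H2BE was also lost without MLL1-KO1 replicate 1 or parental replicate 1, HIST1H2AM without the former and HIST1H2BN without the latter. Only HIST1H2BC and HIST1H4H of these 8 remained called in every alternative that gave a value.

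MLL1-KO2 differed from this. HIST1H4B, an H4 gene, was higher there, with 5 and 9 reads (1.95 and 3.60 TPM) in parental and 17 and 14 reads (7.03 and 5.46 TPM) in MLL1-KO2 (log2 fold change 1.08, SE 0.41, limma adjusted p = 0.038). That call was lost without parental replicate 1 or without either MLL1-KO2 library. HIST1H3H was lower (3.23 and 2.72 TPM, then 0.936 and 0.883; -1.30, adjusted p = 0.0085), as was HIST2H2BA, annotated as the pseudogene H2BP1 (4.86 and 4.16 TPM, then 2.58 and 1.35; -1.07, adjusted p = 0.0052). The first call was lost without parental replicate 1 and the second without MLL1-KO2 replicate 2. The median log2 fold change of the 5 tested H4 genes was 0.84 in MLL1-KO2, against -0.26 in MLL1-KO1.

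By class, the H2B sum moved most, since it holds HIST1H2BK and HIST1H2BD. Mean summed H2B was 328 ± 8.66 TPM (SD, n = 2) in parental, and the lines held 47.3% of that in SAP30-KO1, 43.1% in SAP30-KO2, 36.8% in SIN3A+SIN3B-DKO1, 51.9% in SIN3A+SIN3B-DKO2, 30.9% in MLL1-KO1 and 50.7% in MLL1-KO2. The H1 sum was at 41.0% to 77.4% of parental, lowest in MLL1-KO1 and highest in MLL1-KO2, and the H2A sum at 45.6% to 80.8%, lowest in SIN3A+SIN3B-DKO1. Without the 4 abundant genes the sums were at 54.2% to 101% of parental for H2B and 50.9% to 93.9% for H2A. For H1, where only HIST1H1E then had reads, the range was 77.9% to 133%. The H3 sum (13.7 and 15.9 TPM in parental) was at 61.0% to 103%, and the H4 sum (24.2 and 19.7 TPM) at 73.7% to 145%, highest in MLL1-KO2. With 5 tested genes a class, counts of 0 or 1 are near the backgrounds of 7.56% to 16.3% for lower calls and say little about H3 or H4. H3 had 0 called members in 4 lines and 1 in SIN3A+SIN3B-DKO1 and MLL1-KO2. H4 had 0 in SAP30-KO1, SAP30-KO2 and SIN3A+SIN3B-DKO2. It had 1 lower, HIST1H4H, in SIN3A+SIN3B-DKO1 and MLL1-KO1, and 1 higher, HIST1H4B, in MLL1-KO2 (background for higher calls, 10.2%). In these lines with 0 calls by limma, 1 H3 gene in SAP30-KO2, 1 H3 gene in SIN3A+SIN3B-DKO2 and 0 H4 genes had an unadjusted p under 0.05.

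The most abundant member of each remaining class did not pass the test in any line. HIST1H3C, the leading H3 gene, was at 6.36 and 6.22 TPM in parental and at 2.15 to 6.75 in the lines. Its log2 fold changes ran from -0.96 to -0.31. SAP30-KO2 had 1 library (6.26) between the parental ones, and MLL1-KO2 had 1 (6.75) above both. HIST1H4C, the leading H4 gene, was at 6.78 and 4.39 TPM in parental and 2.72 to 8.92 in the lines, with log2 fold changes of -0.46 to 0.40. HIST1H1E, which encodes linker histone H1.4 and is the other tested H1 gene, was at 7.09 and 10.7 TPM in parental and 5.25 to 12.8 in the lines (log2 fold change -0.33 to 0.42). HIST1H1E rested on 34 to 84 reads a library and HIST1H1C on 182 to 452, and whether the H1 genes differ in response was not tested.

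By cluster, 27 HIST1H, 6 HIST2H, 0 HIST3H and 1 HIST4H members were tested. Outside HIST1H, the called members were HIST2H2BE and HIST2H2AB in MLL1-KO1 and HIST2H2BA in MLL1-KO2, the lines whose backgrounds of lower calls were 16.3% and 14.9% against 7.56% to 8.66% in the others. Whether the clusters or the lines differ in this was not tested. In the other 4 lines, 0 HIST2H members were called by limma, with 2 at an unadjusted p under 0.05 in SIN3A+SIN3B-DKO1 and 0 in the others. HIST2H2AC, an H2A gene, was at 6.05 and 5.55 TPM in parental, 8.42 and 10.3 in MLL1-KO1, and 1.62 to 7.33 in the other lines, with log2 fold changes from -0.65 to 0.64. HIST2H2BF (0.690 to 4.57 TPM over the 14 libraries) ran from -0.39 to 0.95, and HIST2H2BC, annotated as a pseudogene (0.408 to 2.06 TPM), from -0.80 to 0.15. HIST4H4, the only member at its site, was at 1.35 and 1.73 TPM in parental, with 4.36 and 0.889 in the libraries of SAP30-KO2 and 3.75 and 0.589 in those of SIN3A+SIN3B-DKO2, and its log2 fold changes of -0.28 to 0.90 did not pass in any line.

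H2A and H2B genes of the clusters often lie head to head and share the stretch between their starts. HIST1H2BK starts 251 bases from HIST1H2AH, named for that reason. HIST1H2AH was at 2.89 and 1.48 TPM in parental and its log2 fold changes were -0.84 to 0.60, none called, beside -1.87 to -1.08 for HIST1H2BK. HIST1H2AC starts 219 bases from HIST1H2BC, and both were called lower in MLL1-KO1 and, with HIST1H2BC under 7 of 15 alternatives, in SIN3A+SIN3B-DKO2, while in SIN3A+SIN3B-DKO1 only HIST1H2AC passed (HIST1H2BC, -0.70, adjusted p = 0.064). HIST1H2BJ and HIST1H2AG, 248 bases apart, were both lower in MLL1-KO1, and HIST2H2BE starts 236 bases from HIST2H2AC, where the values in MLL1-KO1 were -0.67 and 0.64. Whether the genes of a pair differ in response was not tested.

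Lines of the same genotype were then compared. Between SAP30-KO1 and SAP30-KO2 the test called 0 of 34 members (background, 0.148% of tested genes called), with 2 at an unadjusted p under 0.05 and 0 by voom. SIN3A+SIN3B-DKO1 and SIN3A+SIN3B-DKO2 differed at 1, HIST1H2BD, which was lower in the first (background, 1.01% called lower; log2 difference -0.62, adjusted p = 0.0029), and 0 were called without SIN3A+SIN3B-DKO1 replicate 1, with 2 called without its replicate 2 or without SIN3A+SIN3B-DKO2 replicate 1. MLL1-KO1 and MLL1-KO2 differed at 12 members, 35.3% of those tested, and all 12 were lower in MLL1-KO1 (background, 7.15% called lower). They comprised the 4 abundant genes, with log2 differences of -0.63 for HIST1H2BK, -0.94 for HIST1H1C, -0.79 for HIST1H2BD and -1.05 for HIST1H2AC. The others were HIST1H2BJ (-1.07), HIST1H4H (-0.87), HIST1H2BC (-0.87), HIST1H4B (-1.58), HIST2H2BE (-0.997), HIST1H2BN (-2.30), HIST2H2BF (-1.34) and HIST2H2AB (-1.41), with limma adjusted p from 4.3e-06 to 0.034 over the 12. For HIST2H2BE, MLL1-KO1 was at 1.71 and 1.79 TPM, MLL1-KO2 at 3.92 and 4.07, and parental between them. The count fell to 7 without MLL1-KO1 replicate 2 and to 7 without MLL1-KO2 replicate 1. For the members with 3 reads or fewer in a line, the ratio of reads was 0.0835 for HIST1H2BN (exact 95% interval 0.00949 to 0.341) and 0.1095 for HIST2H2AB (0.00247 to 0.817). MLL itself was also lower in MLL1-KO1 (15.8 to 17.4 TPM) than in MLL1-KO2 (25.7 to 27.7); its part in the result was not tested.

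**Figure D5:**
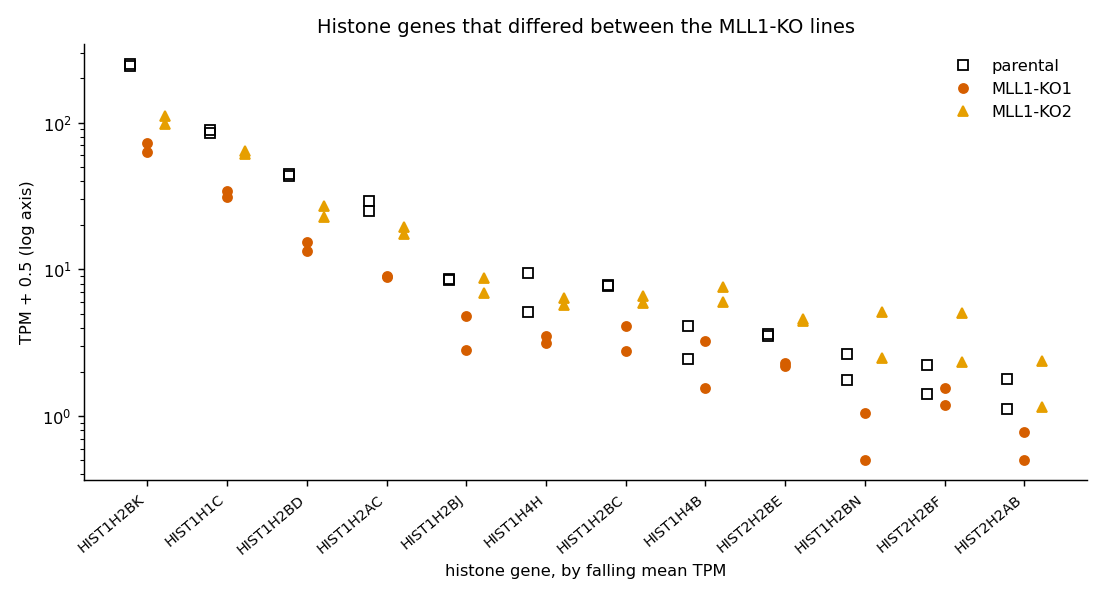
TPM + 0.5 (log axis) of the 12 histone genes that differed between the MLL1-KO lines, with both libraries of parental (squares), MLL1-KO1 (circles) and MLL1-KO2 (triangles). MLL1-KO1 lies below MLL1-KO2 at every gene, and for HIST2H2BE parental (3.13 and 3.02 TPM) lies between the lines.

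Genotypes were compared by the means of their 2 lines. The error was taken from the spread between libraries, so differences between the lines of a genotype did not enter it. The SAP30-KO lines were higher than the SIN3A+SIN3B-DKO lines at 3 H2A genes (background, 4.22% called higher): HIST1H2AC by 0.65 on the log2 scale, HIST1H2AG by 0.78 and HIST1H2AM by 0.80, with adjusted p of 8.7e-05, 0.0059 and 0.015. Subtracting the median of neighboring genes left 0 of these calls, and 6 were called without SAP30-KO2 replicate 2 or SIN3A+SIN3B-DKO2 replicate 1, and 5 without SIN3A+SIN3B-DKO1 replicate 2. HIST1H2BK, HIST1H1C and HIST1H2BD were not called there, at -0.10, 0.12 and 0.36. The MLL1-KO lines were higher than the SAP30-KO lines at HIST2H2AC (0.81) and lower at HIST1H4H (-0.62) and HIST1H2AM (-0.82), against backgrounds of 6.34% and 13.5%. HIST1H4H also differed between the MLL1-KO lines. Its mean was 2.81 TPM in MLL1-KO1 and 5.57 in MLL1-KO2, against 5.89 in SAP30-KO1 and 6.94 in SAP30-KO2. The MLL1-KO lines were higher than the SIN3A+SIN3B-DKO lines at HIST2H2AC (0.87) and HIST1H2BB (0.92), against 6.91%. Both counts depended on single libraries. Against SAP30-KO there were 5 calls without SAP30-KO2 replicate 2 and 1 without MLL1-KO2 replicate 2. Against SIN3A+SIN3B-DKO there were 0 without SIN3A+SIN3B-DKO1 replicate 1 or MLL1-KO2 replicate 2, 1 without SIN3A+SIN3B-DKO2 replicate 1 or MLL1-KO1 replicate 1, and 5 without SIN3A+SIN3B-DKO1 replicate 2. HIST1H2AG, HIST1H2AM and HIST1H2BB were named here after their values were seen.

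Histone genes outside the clusters encode variants deposited throughout the cell cycle, and their mRNAs mostly carry poly(A) tails. Of 10 tested, 0 were called higher and 1 lower in SAP30-KO1 and SAP30-KO2, 0 and 2 in SIN3A+SIN3B-DKO1, 1 and 2 in MLL1-KO1, and 0 and 0 in SIN3A+SIN3B-DKO2 and MLL1-KO2. The shares over all tested genes were 6% to 10.2% called higher and 7.56% to 16.3% lower. H2AFX encodes H2A.X, phosphorylated at DNA breaks, and its mRNA is known in both stem-loop and polyadenylated forms. It was at 281 to 289 TPM in parental, 143 to 155 in SAP30-KO1, 162 to 164 in SAP30-KO2, 181 to 187 in SIN3A+SIN3B-DKO1, 187 to 196 in SIN3A+SIN3B-DKO2, 145 to 149 in MLL1-KO1 and 224 to 234 in MLL1-KO2. It was called lower in SAP30-KO1 (-0.93), SAP30-KO2 (-0.80), SIN3A+SIN3B-DKO1 (-0.63) and MLL1-KO1 (-0.95), and was at -0.57 and -0.31 in SIN3A+SIN3B-DKO2 and MLL1-KO2. H3F3B, which encodes the variant H3.3, was at 471 to 501 TPM in parental with log2 fold changes of -0.10 to 0.06. The whole group's summed TPM was 84.5% to 114% of parental in the lines, against 38.5% to 64.0% for the 48 clustered genes. Of the clustered genes, HIST1H2BK, HIST1H1C, HIST1H2BD and HIST1H2AC together were at 30.2% to 51.7% of parental. The other 44 were at 94.2% in SAP30-KO1, 93.9% in SAP30-KO2, 65.4% in SIN3A+SIN3B-DKO1 and 83.1% in SIN3A+SIN3B-DKO2. They were at 69.6% in MLL1-KO1 and 109% in MLL1-KO2, so their range overlapped that of the genes outside the clusters.

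The genes that make histone mRNA were examined next. Of 18 tested genes of histone gene transcription, 1, 3, 1, 0, 2 and 0 were called lower in the order of lines used above, and 1 was called higher, in MLL1-KO2. Over all tested genes, 6% to 10.2% were called higher and 7.56% to 16.3% lower in the 6 lines. NPAT, the coactivator that switches on clustered histone genes in S phase, was lower in both SAP30-KO lines (log2 fold changes -0.81 and -0.89). Its level was 35.1 to 35.8 TPM in parental, 19.97 to 20.2 in SAP30-KO1 and 18.8 to 19.1 in SAP30-KO2. NPAT was also called in MLL1-KO1 (-0.77). In SIN3A+SIN3B-DKO1 (-0.43), SIN3A+SIN3B-DKO2 (-0.29) and MLL1-KO2 (-0.28) NPAT passed the p threshold and was short of 1.5-fold. Neighboring genes were compared only for the histone clusters. Whether NPAT, H2AFX, MLL or other listed genes changed together with their chromosomal regions was not tested. Of 40 tested genes of histone mRNA 3' end processing and decay, 1, 1, 2, 1, 1 and 2 were higher and 1, 2, 1, 1, 2 and 3 lower in the same order of lines. All of these shares lay below those over all tested genes. CSTF2, a subunit of the cleavage stimulation factor of polyadenylation, rose in both SAP30-KO lines (0.62 and 0.59) and both SIN3A+SIN3B-DKO lines (0.88 and 0.84). CPSF1, which belongs to the cleavage and polyadenylation specificity factor, rose in the MLL1-KO lines (0.70 and 0.86). NUDT21, a cleavage factor subunit that guides the choice of poly(A) site, fell in both SIN3A+SIN3B-DKO lines (-0.69 and -0.59) and both MLL1-KO lines (-0.73 and -0.97), CPSF7, its partner, in both SAP30-KO lines (-0.64 and -0.66), and MIF4GD, a partner of SLBP in histone mRNA translation, in both MLL1-KO lines (-0.70 and -0.77). SLBP was at 135 to 142 TPM in parental and its log2 fold changes of -0.13 to 0.42 all passed the p threshold and were short of 1.5-fold.

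For the lists that follow, the shares over all tested genes were 6% to 10.2% called higher and 7.56% to 16.3% lower. Of 29 histone chaperone genes, which escort histones to and from DNA, 1, 2, 0, 0, 3 and 1 were called higher and 1, 1, 0, 0, 1 and 1 lower. NASP, a chaperone of soluble H3 and H4, rose in SAP30-KO1 (0.88) and SAP30-KO2 (0.79), where SSRP1, a subunit of the FACT complex, fell (-0.64 and -0.61). ASF1A, another H3 and H4 chaperone, fell in MLL1-KO1 (-0.87) and MLL1-KO2 (-0.91). Of 26 S-phase genes, 0 were called higher in any line and 1, 1, 3, 2, 0 and 2 lower, with medians of -0.11 to 0.03, beside -0.55 to -0.04 for the clustered histone genes. GINS2, part of the replicative helicase, was lower in both SAP30-KO lines (-0.70 and -0.71) and both SIN3A+SIN3B-DKO lines (-0.87 and -0.71). Among 14 tested RNAs known to lack a poly(A) tail, 2, 1, 1, 1, 3 and 1 were called higher and 0, 0, 1, 1, 1 and 0 lower, with medians of -0.32 to 0.29. RNU11, a minor spliceosome RNA, had 0 TPM in both parental libraries and 0.899 to 7.21 TPM in the SAP30-KO and SIN3A+SIN3B-DKO lines, and it was also called higher in MLL1-KO1 (0.909 and 0.922 TPM) but not in MLL1-KO2 (0 and 1.03 TPM). SCARNA12, a small Cajal body RNA, rose in MLL1-KO1 (1.44) and MLL1-KO2 (0.83), and SCARNA6 was called lower in both SIN3A+SIN3B-DKO lines, where it was listed at 0 in 3 of 4 libraries against 1.05 and 1.07 TPM in parental. The summed TPM of all 19 listed RNAs was 72.7% to 138% of parental in the lines, highest in MLL1-KO1, where the clustered histone sum was lowest. All 19 together held only 51 to 130 reads a library, so their calls and this sum carry large counting error.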

How the data were processed

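Poly(A)-selected RNA-Seq libraries were made by the authors from total RNA of MDA-MB-231 cultures. The submitters' processing notes name FastQC 0.11.2, TopHat, featureCounts and build hg19. The deposited values are named RPKM, but each library sums to 1000000, so the authors' values were treated as TPM, with 0 other per-sample columns. How the counting treated strand and reads matching several genes is not given in the sources used here, and overlapping or near-identical histone genes are uncertain for that reason. Read numbers were worked out from the steps in the TPM values (tolerance 0.05 reads).

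Genes with at least 1 TPM in at least 2 libraries (13540) entered a limma 3.58.1 fit (R 4.3.3) of log2(TPM + 0.5) with a mean-variance trend and 7 group means over all 14 libraries (7 residual and 3.6 prior degrees of freedom), with Benjamini-Hochberg adjustment within a comparison. Genes were called at an adjusted p under 0.05 and 1.5-fold. Fold changes on this scale understate changes of low genes, and read limits of 3 cover counting error only. The script was tested on simulated data in which only genes with more reads than most low members were changed. Calls resting on few reads were not covered by it. Alternatives were other pseudocounts, scalings, filters, fold minimums and library sets, copies summed, neighboring genes subtracted, a replicate block, and voom (limma's weighting for read counts) on the recovered reads. With no fold minimum a call cannot be lost, so that alternative is no check of a call. Members and lists were chosen with earlier results of these data known. Named were the most abundant member of each class, up to 4 called members per direction and line, members called in both lines of at least 2 genotypes or differing between lines of a genotype, tested H1, HIST2H, HIST3H and HIST4H members, and listed genes called in both lines of a genotype. Positions come from GENCODE 44 on GRCh37, promoters from RefSeq.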

Additional observations from a re-analysis of the deposited data

Results flagged for a closer look

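Results are given here where a test found that the edited lines or genotypes differed from each other, all by limma on log2(TPM + 0.5) with Benjamini-Hochberg adjustment over all tested genes. Between the SIN3A+SIN3B-DKO lines HIST1H2BD differed by -0.62 (SIN3A+SIN3B-DKO1 minus SIN3A+SIN3B-DKO2). Between MLL1-KO1 and MLL1-KO2, 12 members differed. The H2B genes were at -0.63 (HIST1H2BK), -0.79 (HIST1H2BD), -1.07 (HIST1H2BJ), -0.87 (HIST1H2BC), -0.997 (HIST2H2BE), -2.30 (HIST1H2BN) and -1.34 (HIST2H2BF), the H2A genes at -1.05 (HIST1H2AC) and -1.41 (HIST2H2AB), the H4 genes at -0.87 (HIST1H4H) and -1.58 (HIST1H4B), and the H1 gene HIST1H1C at -0.94. Between the SAP30-KO and SIN3A+SIN3B-DKO lines HIST1H2AC (0.65), HIST1H2AG (0.78) and HIST1H2AM (0.80) differed. The MLL1-KO lines differed from the SAP30-KO lines at HIST2H2AC (0.81), HIST1H4H (-0.62) and HIST1H2AM (-0.82), and from the SIN3A+SIN3B-DKO lines at HIST2H2AC (0.87) and HIST1H2BB (0.92). At HIST1H4H the MLL1-KO lines also differed from each other (-0.87).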

How the results depend on the processing

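Calls of HIST1H2BK were kept in all 6 lines under each of the 16 alternatives tried per line, and those of HIST1H2BD, HIST1H1C and HIST1H2AC under each alternative except, for HIST1H2BD in SAP30-KO1, SIN3A+SIN3B-DKO2 and MLL1-KO2 and HIST1H1C in SAP30-KO1, SAP30-KO2 and SIN3A+SIN3B-DKO2, a 2-fold minimum. Counts of lower calls moved by over 1.5 times with a 2-fold minimum in SAP30-KO1 (2) and SIN3A+SIN3B-DKO2 (2), with only the 4 libraries compared in SAP30-KO2 (5), and with same-protein copies summed in SIN3A+SIN3B-DKO1 (5). Higher calls became 1 in SAP30-KO1, SAP30-KO2 and SIN3A+SIN3B-DKO2 without the filter on low values, and 1 in SIN3A+SIN3B-DKO2 and MLL1-KO1 with only the 4 libraries compared. In MLL1-KO2 higher calls were 0 without the filter and with copies summed, 2 by voom on recovered reads, 3 after quantile normalization and 6 with only the 4 libraries compared. Settings beyond the pseudocount for comparisons among lines were chosen after seeing the data. There, a 2-fold minimum left 0 calls between the SIN3A+SIN3B-DKO lines, 6 between the MLL1-KO lines and 0 between genotypes, and no fold minimum gave 3 between the SIN3A+SIN3B-DKO lines, 5 for SAP30-KO against SIN3A+SIN3B-DKO, 7 for MLL1-KO against SAP30-KO and 4 for MLL1-KO against SIN3A+SIN3B-DKO. Subtracting the neighboring genes' median left 0 for SAP30-KO against SIN3A+SIN3B-DKO. MLL1-KO against SIN3A+SIN3B-DKO had 1 without the filter and 4 after quantile normalization, median-ratio scaling or voom. The cause of these shifts was not tested, beyond the fewer genes or libraries that an alternative used.

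Leaving out each library in turn gave lower calls of 3 to 5 in SAP30-KO1, 3 to 6 in SAP30-KO2, 6 to 10 in SIN3A+SIN3B-DKO1, 4 to 7 in SIN3A+SIN3B-DKO2, 7 to 12 in MLL1-KO1 and 4 to 5 in MLL1-KO2, the lone library being assumed to vary like the others. Higher calls ran from 0 to 1 in SAP30-KO1 and MLL1-KO2, 0 to 3 in SAP30-KO2 and 0 to 0 elsewhere. Between lines the ranges were 0 to 0 for SAP30-KO, 0 to 2 for SIN3A+SIN3B-DKO and 7 to 11 for MLL1-KO, and between genotypes 2 to 6 for SAP30-KO against SIN3A+SIN3B-DKO, 1 to 5 for MLL1-KO against SAP30-KO and 0 to 5 for MLL1-KO against SIN3A+SIN3B-DKO. Same-numbered libraries did not deviate together (mean correlation 0.01, range -0.07 to 0.08 over 21 pairs of groups), so the numbers give no pairing, and with a replicate block lower calls were 4, 3, 9, 5, 11 and 4 in the 6 lines, within 1.5 times of those without it. The summed TPM of the 48 genes moved by more than its SD in SAP30-KO1 (279.875 after quantile normalization and after median-ratio scaling alike, from 290) and MLL1-KO1 (219 and 210, from 197). No result reversed. Depth limits the 30 low members.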

Other observations

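Genes around the histone clusters were also compared with parental. The 50 tested genes other than histones nearest to HIST1H (chromosome 6, 24403136 to 30524266) had a median log2 fold change of 0.02 in SAP30-KO1, 0.00 in SAP30-KO2, -0.18 in SIN3A+SIN3B-DKO1, -0.19 in SIN3A+SIN3B-DKO2, -0.23 in MLL1-KO1 and -0.02 in MLL1-KO2. The 50 nearest to HIST2H on chromosome 1 had medians of -0.03 to 0.16. The 50 nearest to HIST4H4 on chromosome 12 had 0.34 in MLL1-KO1 and -0.18 in MLL1-KO2, and -0.07 to -0.02 in the other lines. With the neighbors' median subtracted in each library, 4 histone genes were called lower in SAP30-KO1, 3 in SAP30-KO2, 9 in SIN3A+SIN3B-DKO1, 4 in SIN3A+SIN3B-DKO2, 10 in MLL1-KO1 and 4 in MLL1-KO2.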
